A study of Caenorhabditis elegans with 16 samples.

Results

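The 22G-RNAs described here paired, by their 5′ G, with the downstream part of the oma-1 coding sequence, from codon 201 to codon 401, in the intronless reference sequences of 2 tagged versions of the gene. Members were the listed sequences of the 6 oma-1 libraries with a 5′ position in that range. They numbered 511 of the 2372 sequences listed in the 6 libraries and of the 4497 listed in all 16 libraries of the study. Across the libraries they were 232 distinct sequences and held 4422 of the 40236 reads on the oma-1 references. Every one was 22 nt long and began with G. The range was chosen by position, so no level or ratio given here entered the choice of members, although results of these data were known when the range was proposed.

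OMA-1 is a CCCH zinc-finger protein that binds RNA in the germline, acts with its close relative OMA-2 in oocyte maturation, and is removed after the first division of the embryo. 22G-RNAs are made by RNA-dependent RNA polymerases that copy a messenger RNA and start each copy opposite a cytosine of the template, which gives the small RNA its 5′ G. Argonaute proteins then carry these antisense RNAs to transcripts of the same sequence, and in the germline this can silence a gene. RDE-3 is a nucleotidyltransferase that adds tails to the 3′ ends of targeted RNAs, which then serve as templates. PRG-1 is the Piwi Argonaute that binds piRNAs, small RNAs encoded in the genome that mark transcripts for copying into 22G-RNAs.

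Small RNAs were cloned from synchronously grown whole worms, with 1 library per genotype. Of the 6 genotypes, 4 carried 3xflag-tagged alleles of oma-1 on chromosome IV. One was oma-1(ne4868), in which the original introns were put back, and one was oma-1(ne4869), which has none. The rde-3 strain combined rde-3(ne4871), a null allele, with oma-1(ne4869), and the prg-1 strain combined prg-1(ne4844), also a null allele, with a separately numbered intronless allele, oma-1(ne4845). The other 2 carried an intronless oma-1 fused to gfp as an insertion on chromosome II, with a C. briggsae unc-119 rescue gene and unc-119(ed9) on chromosome III in the background. In neSi74 no change of the worm's own oma-1 is named, and in neSi75 the locus was removed whole by oma-1(ne4864). They are called here the restored-intron, intronless, rde-3, prg-1, locus-present and locus-deleted libraries. None of the 6 is an unmodified wild type, all but the restored-intron strain had an intronless oma-1, and the worms were whole, so germline and soma cannot be told apart.

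In genome build WBcel235, oma-1 spans bases 8888976 to 8890999 of chromosome IV. The reference positions used below count from 1 at the first base of the intronless sequence and were not placed in the genome, so the exon borders within the region are not given. The region is 601 bases long and is all coding sequence. Both CCCH fingers found by translating the reference lay upstream of it, within bases 462 to 647. The references first differ at base 1313, where the region ends, and a read extends from its 5′ position toward lower numbers, so each member lay wholly in sequence common to both. For the locus-present strain, reads made on the inserted gene and on the worm's own oma-1 cannot be told apart. Each of the 22-base stretches below a cytosine of the region occurred once in both oma-1 references and in neither of the study's other references, and whether any is shared with oma-2 was not tested.

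The region holds 162 cytosines, each a possible start site. The sequences at 12 of them are shown because the results below turn on them. The 4 at the top are among the 5 highest sites of the prg-1 library, bases 1162 and 1186 were high in the locus-deleted and the restored-intron library, and the last 6 lie in the 3′ end, where the intronless and both oma-1::gfp libraries were highest. Names give the base that pairs with the 5′ G. Each is written 5′ to 3′ as the DNA letters of the antisense RNA, matches the reference without mismatch, and has its first and second base in capitals, since read numbers differed by the second base. The gene lies on chromosome IV.
base 722: GTcagccaatgcatggcgttga
base 726: GAatgtcagccaatgcatggcg
base 798: GAtgctgaatggcagaaagcgg
base 951: GAgacggtggataggtcatcgc
base 1162: GCattgagtgacgaagaactga
base 1186: GCagcagcggcagctgcggatg
base 1218: GAgattgagcaacagcagaatt
base 1231: GAtttcatcagaagagattgag
base 1235: GAcagatttcatcagaagagat
base 1282: GGcattggagagaatggtccgt
base 1289: GAatcctggcattggagagaat
base 1293: GAtcgaatcctggcattggaga
Neighbouring sequences overlap, as with those at bases 1231 and 1235 or 1289 and 1293, so these members share most of their letters and differ in where the copy began.

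The 22G-RNAs of the region were most abundant in the prg-1 library and scarcest in the restored-intron and rde-3 libraries. The region had 21 reads with restored introns, 636 in the intronless library, 15 in rde-3, 2426 in prg-1, 96 with the oma-1 locus present and 1228 with it deleted. As levels these were 3.79 ppm (2.34 to 5.79), 132 ppm (122 to 143), 6.04 ppm (3.38 to 9.97), 746 ppm (716 to 776), 18.2 ppm (14.7 to 22.2) and 253 ppm (239 to 267). Neighbouring intervals in this order of levels did not overlap, except those of the restored-intron and rde-3 libraries. Levels in ppm are the deposited values, which equal the read count divided by 1 number per library; the meaning of that number was not given in the sources used here, and 1 read was worth 0.18 to 0.403 ppm. Values in parentheses are exact 95% intervals. They cover counting error only, since reads amplified by PCR and carrying no molecular identifier need not be separate molecules. With 1 library per genotype there was no replicate and no test, so each ratio compares 2 libraries and leaves out the spread between worm populations.

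The region's share was taken of all reads listed for a library, which include those on the rest of its reference, gfp among it for oma-1::gfp. The region held 21.9% (14.1 to 31.5) of the reads with restored introns, 11.6% (10.7 to 12.5) in the intronless library, 9.32% (5.31 to 14.9) in rde-3, 13.9% (13.4 to 14.5) in prg-1, 1.88% (1.53 to 2.29) with the locus present and 10.2% (9.71 to 10.8) with the locus deleted. The intervals of the intronless, rde-3 and locus-deleted libraries overlapped. The locus-present library stood apart in this measure, with an interval that lay below those of the other 5. The locus-deleted library was mapped to the same reference, which has 2546 bases against 1867 for oma-1::3xflag. Shares are therefore not like for like between the oma-1::gfp and the oma-1::3xflag libraries. Set against the upstream coding sequence alone, the locus-present library was not low, with 96 reads in the region against 151 upstream.

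Without introns the region had 34.9 times the level of the restored-intron library (22.6 to 56.8), from 636 against 21 reads. Both libraries have the same set number and lane in the library names that the labels give (called the library set below). The restored-intron library was read on the spliced sequence, and reads on introns were not analysed here. Its reads were spread thinly, with no site above 3 reads. Their highest site was base 1186, a GC-rich stretch ending in codon 359, where the 6 libraries had, in the order given above, 3, 9, 0, 24, 3 and 4 reads. It was followed by bases 749, 754, 762, 1111 and 1178 with 2 reads each. Base 1178 had 0, 0, 2, 1 and 1 reads in the other 5 libraries, and no other restored-intron site lacked intronless reads. At base 749 the other 5 libraries had 3, 0, 12, 0 and 3 reads, at base 754 they had 3, 0, 7, 0 and 1, and at base 1111 they had 4, 0, 2, 0 and 2. Sites 749, 754 and 1111 were thus low in all 6 libraries, with no more than 12 reads in any.

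The region was divided into 6 windows of 100 bases (the last of 101), and the intronless library was higher than the restored-intron one in all of them. The ratio was 20.4 (9.05 to 56.7) in the first window, which ends before base 812, 16.3 (7.20 to 45.7) in 1012 to 1111 and 26.3 (10.9 to 82.5) in 1112 to 1211. It was 140 (38.4 to 1163) in the last window, from base 1212 on, from 243 against 2 reads. The last window's ratio was 6.88 times that of the first (1.37 to 34.6). In windows 812 to 911 and 912 to 1011 the restored-intron library had 1 read each against 31 and 57 reads. Among sites with at least 20 reads over both libraries, base 1289 had 38 against 1 read, a ratio of 43.8 (7.40 to 1775). Bases 1231, 726 and 1293 had 29, 27 and 22 reads against 0. Their ratios have no upper limit, and the exact 95% lower limits were 8.50, 7.87 and 6.31.

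In the rde-3 library the region was 21.9-fold lower than in the intronless library (13.2 to 39.3), with 15 reads at 10 sites. These strains share the allele oma-1(ne4869), but the libraries belong to different sets and lanes, so genotype and library set cannot be told apart. On unscaled reads the ratio was 0.0236, against 0.0457 in ppm. The 15 reads were 4 in the first window, 3 in bases 812 to 911, 2 in 1112 to 1211 and 6 in the last window. No read fell in bases 912 to 1111, 2 windows where the intronless library had 57 and 85 reads. For the count of 0 in the rde-3 library, the exact 95% upper limit was 1.49 ppm in each of these windows. All 10 sites were also used in the intronless library. Base 1126, which had 1 read in rde-3, had 0, 14, 27, 0 and 15 in the restored-intron, intronless, prg-1, locus-present and locus-deleted libraries. The rde-3 library's highest site was base 865 with 3 reads, where the others had 0, 7, 56, 1 and 15 reads in the restored-intron, intronless, prg-1, locus-present and locus-deleted libraries. Base 1289 had 2 reads against 38, a level 9.80-fold lower, with the rde-3 over intronless ratio at 0.102 (0.0119 to 0.395). Base 726 had 2 against 27, with a ratio of 0.144 (0.0166 to 0.572). Bases 1282 and 1293 had 0 reads against 27 and 22, with exact 95% upper limits of the ratio at 0.284 and 0.354.

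In the prg-1 library the region's level was 5.64 times that of the intronless library (5.17 to 6.17), from 2426 against 636 reads. The prg-1 strain carries an intronless allele with another number, and its library another set and lane, so prg-1 genotype, allele and library set cannot be told apart. Within its own library set, the prg-1 library had 123 times the level of the rde-3 library (74.7 to 221), with different oma-1 allele numbers again. Between these libraries base 798, with 186 reads against 2, had a ratio of 71.0 (19.4 to 590), and base 726, with 142 against 2, one of 54.2 (14.7 to 452). Another 27 sites with at least 20 reads had 0 in rde-3, such as base 722 with 145 reads and base 951 with 99, and their ratios cannot be ranked against these. The excess of prg-1 over the intronless library was smaller toward the 3′ end of the region. From the first window to the last, the 6 ratios were 11.3 (9.25 to 14.0), 17.5 (12.1 to 26.2), 7.68 (5.77 to 10.4), 5.08 (3.98 to 6.55), 4.39 (3.54 to 5.47) and 1.95 (1.65 to 2.32). The last window's ratio was 0.172 of the first window's (0.133 to 0.224).

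The windows of the prg-1 library had 250 ppm, 113 ppm, 91.0 ppm, 89.8 ppm, 104 ppm and 98.7 ppm. Its level was thus highest in the first window and between 89.8 and 113 ppm in the other 5. In the intronless library they had 22.0, 6.44, 11.8, 17.7, 23.7 and 50.5 ppm, so its highest window was the last. The first window held 33.5% of the region's reads in prg-1 (31.6 to 35.4) and 16.7% in the intronless library (13.9 to 19.8). The last window held 13.2% (11.9 to 14.6) and 38.2% (34.4 to 42.1). The median read of the region started at base 915 in prg-1 and at base 1150 in the intronless library.

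The same difference was seen at single sites. Base 798, in codon 230, was the highest site of the prg-1 library with 186 reads, and the restored-intron, intronless, rde-3, locus-present and locus-deleted libraries had 0, 13, 2, 3 and 33. Base 722 had 145 reads in prg-1 and 0, 13, 0, 0 and 24 in the same other libraries. Base 726 had 142 reads in prg-1 and 0, 27, 2, 2 and 44 in the others. Base 951 had 99 in prg-1 and 0, 12, 0, 2 and 12 in the others, and base 904 had 84 and 0, 5, 0, 0 and 7. These 5 were the highest sites of the prg-1 library, all at or below base 951. Of them only base 726 was also among the 5 highest of the intronless and of the locus-deleted library.

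At the 3′ end the order of sites was different. Base 1289 was the highest site of the intronless library with 38 reads, or 7.90 ppm, and had 40 reads in prg-1, or 12.3 ppm. Base 1293, its neighbour downstream, had 22 reads in the intronless library and 7 in prg-1, a prg-1 over intronless ratio of 0.471 (0.170 to 1.14). Base 1235 had 18 against 12 reads, a ratio of 0.986 (0.433 to 2.16). These 2 sites had the smallest ratios among sites with at least 20 reads over both libraries, and both intervals include 1. Among sites with reads in both libraries, the largest were at bases 769 and 1102, each with 29 reads in prg-1 and 1 in the intronless library, a ratio of 42.9 (7.11 to 1752). Base 1022, with 28 reads against 0 and named here after its values were seen, has no upper limit and cannot be ranked against them.

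With at least 10 reads over both libraries, 82 sites could be compared between prg-1 and intronless. The level was at least 2-fold higher in prg-1 at 69 of them, at least 2-fold lower at 1 and between at 12. A site with few intronless reads passed the minimum through its prg-1 reads and was then called higher, such as base 1022 with 28 against 0. Over the whole sequence that the references share, 93.2% of 222 sites were 2-fold higher and 0.45% were 2-fold lower. The site 2-fold lower was base 1293, the only one in the whole shared sequence. The median site ratio was 5.92 in the region and 7.40 over the shared sequence.

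Intronless oma-1 was compared between its own locus and an inserted copy. In the locus-deleted library, where the insertion on chromosome II was the only oma-1, the region's level was 1.91 times that of the intronless allele at the oma-1 locus (1.74 to 2.11), from 1228 against 636 reads. The libraries differ in set and in the tag that follows oma-1, and the strains in unc-119(ed9) and its rescue gene. Locus, tag, unc-119 background and library set thus cannot be told apart. All 6 windows were higher in the locus-deleted library. The first 5 had ratios of 1.64 (1.28 to 2.10), 1.85 (1.18 to 2.97), 1.42 (1.00 to 2.03), 1.35 (1.01 to 1.81) and 1.60 (1.26 to 2.04). In the last window 126 ppm stood against 50.5 ppm, and its ratio of 2.50 (2.15 to 2.91) was 1.53 times that of the first window (1.15 to 2.03).

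In the locus-deleted library many reads fell on few sites near the 3′ end. The last window held 49.9% of the region's reads (47.1 to 52.8). Base 1231, in codon 374, alone held 188 reads there, 15.3% of the region and 38.7 ppm. At this site the restored-intron, intronless, rde-3, prg-1 and locus-present libraries had 0, 29, 0, 81 and 12 reads. The locus-deleted level was 6.42 times the intronless level (4.33 to 9.85). Without the highest sites of both libraries, bases 1231 and 1289, the region's ratio was 1.61 in place of 1.91. Base 1289 followed with 114 reads against 38, the only site used in all 6 libraries, with 1 read with restored introns, 2 in rde-3, 40 in prg-1 and 8 with the locus present. The next sites were bases 726, 1218 and 1162 with 44, 43 and 39 reads.

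Site 1162 ranked among the 5 highest in the locus-deleted library alone. Site 1218 did so too, apart from a tie for rank 5 on 1 read in rde-3. Base 1162, in codon 351, had 0, 5, 0, 20, 1 and 39 reads in the 6 libraries. Its locus-deleted over intronless ratio, 7.73 (3.04 to 25.1), was the largest among sites with at least 20 reads over both libraries. Base 1218 had 0, 10, 1, 5, 0 and 43 reads. In the other direction, base 1140 had 15 reads in the intronless library and 5 in the locus-deleted one, a ratio of 0.330 (0.0939 to 0.956), with 0, 0, 39 and 4 reads in the restored-intron, rde-3, prg-1 and locus-present libraries. Sites with fewer than 20 reads over both libraries went lower. Base 1080 had 16 intronless reads and 1 locus-deleted read, and base 1193 had 14 and 1. Base 1235, a neighbour of base 1231, had 18 against 13 reads, a ratio of 0.715 (0.322 to 1.54). Sites a few bases apart thus stood on opposite sides of 1, although the interval at base 1235 includes 1.

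Of 47 sites with at least 10 reads over the locus-deleted and intronless libraries, 20 were at least 2-fold higher in the locus-deleted library, 5 at least 2-fold lower and 22 between. Here too the minimum fixed the call at sites with few intronless reads, such as base 1255 with 15 against 0. Over the shared sequence 55.3% of 152 sites were 2-fold higher and 4.61% were 2-fold lower. The median site ratio was 1.63 in the region and 2.27 over the shared sequence.

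With the worm's own oma-1 present beside the insertion, the region had 18.2 ppm, and with the locus deleted it had 253 ppm, a ratio of 13.9 (11.3 to 17.3). The strains carry separately numbered insertions, neSi74 and neSi75, and their libraries different sets and lanes, so these and the deletion cannot be told apart. The 6 windows had 1.89, 0.189, 0.946, 1.89, 2.84 and 10.4 ppm with the locus present. They had 36.0, 11.9, 16.9, 23.9, 37.9 and 126 ppm with it deleted. The ratio ran from 12.1 (9.19 to 16.3) in the last window to 19.0 (10.1 to 40.4) in the first, apart from bases 812 to 911, where 58 reads stood against 1, a ratio of 63.1 (10.9 to 2534). The last window's ratio was 0.637 of the first window's (0.318 to 1.28), an interval that includes 1.

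The locus-present library used the same 3′ end. Its last window held 57.3% of the region's 96 reads (46.8 to 67.3), the largest share of the 6 libraries, though its interval overlaps those of the locus-deleted library and of rde-3, where 6 of 15 reads lay there. Its 5 highest sites were bases 1231, 1289, 1293, 1282 and 1140, with 12, 8, 8, 7 and 4 reads. All of these but base 1140 lay in the last window, and base 1276, which tied with base 1140 at 4 reads, lay there too. Base 1282 had 0, 27, 0, 39, 7 and 23 reads in the 6 libraries, and base 1293 had 0, 22, 0, 7, 8 and 20. Among sites with at least 20 reads over both libraries, the smallest locus-deleted over locus-present ratios were at bases 1293 (20 against 8 reads, 2.72, 1.15 to 7.14) and 1282 (23 against 7 reads, 3.57, 1.49 to 9.86). Sites with fewer reads went lower, such as base 1080 with 1 against 3. Among sites with reads in both libraries, the largest were at bases 1162 (39 against 1, 42.4, 7.18 to 1718) and 1262 (36 against 1, 39.2, 6.59 to 1589). Another 6 sites with at least 20 reads, base 1218 with 43 among them, had 0 with the locus present and cannot be ranked against these. All 37 sites used with the locus present were also used with it deleted, and they made up 33.3% of the sites used there.

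Against the intronless allele at the oma-1 locus, the locus-present library was 7.28-fold lower in the region (5.86 to 9.12). Library set, lane, tag, insertion site, unc-119 background and the presence of a second oma-1 differ between them and cannot be told apart. It was 11.6-fold lower in the first window (6.09 to 25.0) and 4.85-fold lower in the last (3.61 to 6.63). Site ratios were ranked among the 7 sites with at least 20 reads over both libraries. The largest were 0.377 at base 1231 (0.175 to 0.761), from 12 against 29 reads, and 0.331 at base 1293 (0.127 to 0.772), from 8 against 22 reads. The smallest was at base 726, with 2 against 27 reads, a ratio of 0.0674 (0.00777 to 0.268). Sites with fewer reads went past both ends, such as base 1245 with 3 against 2 reads and base 722 with 0 against 13. Base 1273 had 2 against 18 reads, a ratio of 0.101 (0.0114 to 0.423).

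The region was compared with the coding sequence upstream of it, from the start codon on, which has the same length of 601 bases and holds 155 cytosines. In every library the downstream region had fewer reads than the upstream one, with 21 against 45 with restored introns, 636 against 1981 in the intronless library, 15 against 50 in rde-3, 2426 against 11798 in prg-1, 96 against 151 with the locus present and 1228 against 4501 with the locus deleted. The downstream over upstream ratios were 0.467 (0.264 to 0.800), 0.321 (0.293 to 0.351), 0.300 (0.156 to 0.543), 0.206 (0.197 to 0.215), 0.636 (0.487 to 0.827) and 0.273 (0.256 to 0.291). The lowest was that of prg-1 and the highest that of the locus-present library.

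Between genotypes the downstream region often differed by less than the upstream one. The prg-1 library exceeded the intronless library 5.64-fold downstream and 8.81-fold upstream, so the downstream ratio was 0.640 of the upstream one (0.580 to 0.707). The locus-deleted library exceeded the locus-present one 13.9-fold and 32.4-fold, with a ratio of ratios of 0.429 (0.330 to 0.559). The locus-deleted library exceeded the intronless one 1.91-fold and 2.25-fold, with 0.850 (0.762 to 0.948). The locus-present library was 7.28-fold below the intronless one downstream and 14.4-fold below it upstream, with 1.98 (1.51 to 2.60). For the remaining contrasts the interval of the ratio of ratios includes 1. It was 0.688 (0.407 to 1.16) for intronless over restored introns, 0.934 (0.521 to 1.68) for rde-3 over intronless and 0.685 (0.384 to 1.22) for prg-1 over rde-3. Intervals of ratios of ratios come from the log scale and are approximate.

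Site use was broad where depth allowed it to be seen. At least 1 read started at 14 of the 162 cytosines with restored introns, 104 in the intronless library, 10 in rde-3, 143 in prg-1, 37 with the locus present and all but 51 with the locus deleted. The order followed that of the read numbers. When each library was thinned to 15 reads, the mean number of used sites was 11.3, 13.1, 10, 12.9, 11.8 and 11.8. At 90 reads it was 48.5 in the intronless library, 48.7 in prg-1, 36.0 with the locus present and 41.0 with the locus deleted. At 600 reads it was 103, 113 and 92.6 in the intronless, prg-1 and locus-deleted libraries, so at equal depth the locus-deleted library used fewer sites than the intronless and prg-1 libraries, and the locus-present library did so at 90 reads.

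The 5 highest sites held 22.5% of the region's reads in the intronless library (19.3 to 25.9), 27.0% in prg-1 (25.3 to 28.9) and 34.9% in the locus-deleted library (32.2 to 37.6). They held 40.6% with the locus present (30.7 to 51.1), 52.4% with restored introns (29.8 to 74.3) and 66.7% in rde-3 (38.4 to 88.2) (the last 2 of 21 and 15 reads). The 5 sites were picked from the same reads, so these shares run high at low depth, and the intervals do not cover this. The shares were not compared at equal depth. Of the 162 cytosines, 148 were used in at least 1 library and 14 in none. The prg-1 library alone used 26 sites, with 122 reads on them, and the locus-deleted library alone used 4, with 6 reads. These counts were not taken at equal depth. The prg-1 library had the most reads in the region, 2426 against 1228 with the locus deleted, so they do not show a trait of prg-1 apart from depth. Of the sites used in the intronless library, 99.0% were used in prg-1, and these 103 sites were 72.0% of those used in prg-1. The intronless and locus-deleted libraries shared 93 sites, 89.4% of the former's and 83.8% of the latter's. Bases 726, 762 and 1231 were among the 10 highest sites of all 3 of the deepest libraries. Base 762 had 2, 15, 0, 61, 1 and 32 reads in the 6 libraries.

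Across the 162 sites, the level in the intronless library had a Pearson correlation of 0.73 with the locus-deleted library, 0.76 with the locus-present library and 0.55 with prg-1 (Spearman 0.76, 0.57 and 0.60). The oma-1::gfp libraries correlated at 0.72 with each other (Spearman 0.50), and prg-1 at 0.44 with the locus-deleted library (Spearman 0.59). In the upstream coding region the intronless library's Pearson correlation over 155 sites was 0.93 with prg-1 and 0.91 with the locus-deleted library. In windows of 50 bases over the downstream region, its correlation with prg-1 was 0.035 and that with the locus-deleted library 0.91. These correlations describe sites that share a template and base composition and are not independent, and sites near 0 in both libraries weigh on them. The restored-intron library, with 21 reads, had 0.17 with the intronless one, and rde-3, with 15 reads, had 0.44.

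The second base of the 22G-RNA, which pairs with the template base just upstream of the cytosine, went with the number of reads. Sequences beginning GA came from 57 of the 162 sites, or 35.2%. They held 62.4% of the reads at cytosines in the intronless library (58.5 to 66.2), 52.9% in prg-1 (50.9 to 54.9), 66.7% with the locus present (56.3 to 76.0) and 68.8% with the locus deleted (66.1 to 71.4). The mean reads per GA site were thus 3.06, 2.07, 3.68 and 4.06 times the mean of the other sites in these libraries. The median GA site had 4, 10, 0 and 5 reads. In prg-1, sites beginning GT were not below GA sites, with a mean of 23.4 against 22.5 reads and a median of 11 against 10. The GT mean was below the GA mean in the intronless (3.83 against 6.93), locus-present (0.391 against 1.12) and locus-deleted (7.91 against 14.8) libraries. With the locus deleted, bases 1231 and 1289 gave 188 and 114 of the 845 reads at GA sites. Among the 12 sequences shown above, 8 begin GA, base 1231 and base 1289 included, but 722, 1162, 1186 and 1282 do not.

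Sites with C or G as the second base were used less. GC sites were 29.6% of the 162 and held 12.3% of the reads in the intronless library, 15.7% in prg-1 and 9.12% with the locus deleted. GG sites were 34 of the 162 and held 11.4%, 9.17% and 7.25%. The 14 sites used in no library were 9 GC and 5 GG sites, and none was GA or GT. GT sites were 14.2% of the sites and held 13.9% of the reads in the intronless library (11.3 to 16.8), 22.2% in prg-1 (20.6 to 23.9) and 14.8% with the locus deleted (12.9 to 16.9). In the upstream coding region GA sites held 45.1%, 44.2% and 45.5% of the reads in these 3 libraries from 28.4% of the sites, and GT sites held 40.9%, 39.1% and 37.0%, also from 28.4%. The bases upstream and downstream of a site were not randomised, and the part of the second base apart from position within the region was not tested.

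The mean GC content of the 22 bases was 51.9% over all 162 sites and 46.4% to 51.7% over the reads of the 6 libraries, lowest with the locus deleted, where the AT-rich sequence at base 1231 was the highest site. Second codon positions held 52.5% of the cytosines and 43.4%, 42.8% and 51.4% of the reads in the intronless, prg-1 and locus-deleted libraries. First positions held 30.9% of the cytosines and 35.4%, 40.4% and 26.8% of the reads. Sites followed by G in the coding strand were 17.9% of the total and held 34.1% of the reads in the intronless library (30.4 to 38.0), 30.1% in prg-1 (28.3 to 31.9) and 31.7% with the locus deleted (29.1 to 34.4). Their mean reads per site were 2.38, 1.97 and 2.13 times the mean of the other sites, against 2.52, 3.51 and 2.27 times in the upstream coding region. For GA sites upstream the mean was 2.07, 2.00 and 2.11 times that of the other sites.

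Nearly all members paired with a cytosine as listed. The exceptions were 3 reads in the intronless library and 6 in prg-1, which were placed on another base. Reads with 1 mismatch to the reference numbered 2, 16, 0, 72, 9 and 35 in the 6 libraries, and 1, 7, 0, 44, 8 and 23 of them had it at the last base of the read. The highest mismatch shares, 9.52% with restored introns and 9.38% with the locus present, rested on 21 and 96 reads, against 2.52% to 2.97% in the 3 deepest libraries.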

How the data were processed

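Total small RNA came from whole worms. Per the labels' protocols, it was enriched for small RNAs, trimmed to 5′ monophosphates with PIR-1, ligated to adaptors and amplified by PCR. The submitters' processing notes name cutadapt, Bowtie2 and build WBcel235, and their versions were not given in the sources used here. Per the labels, the authors mapped each library to an intronless reporter sequence. Each deposited file lists sequences with a read count, a scaled RPM value (headed ppm) and the base paired with the 5′ G, per the file headers. Each member is 22 nt long and begins with G, as checked in the files. In the sources used here, the treatment of reads with several matches was not given.

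The region is bases 712 to 1312 of both references and the upstream coding region bases 111 to 711. Reads were summed per site, window and region and divided by each library's reads per ppm. Levels have exact Poisson, shares exact Clopper-Pearson and ratios exact conditional intervals, at 95%. To choose and count sites by ratio, a count of 0 was set to 3 reads, which is no bound. No test was run, since each genotype had 1 library. The region's depth was 15 to 2426 reads. Counts of sites past 2-fold are given for 2 contrasts, prg-1 and locus deleted over intronless. In the others the minimum of 10 reads by itself almost fixed the call. In these 2 it still did so for sites with few intronless reads. Sites named by rule are the 5 highest of each library and, per contrast, the 2 with the largest and the 2 with the smallest ratio among sites with at least 20 reads, 26 in all. Ties among the 5 highest went to the lower base. Bases 1022, 1080, 1178, 1193, 1245, 1255 and 1276 were named outside this rule, with their values known. The sites at bases 868 and 986 are named by this rule for prg-1 over rde-3, with 20 reads against 0 at each and an exact 95% lower limit of 3.77. The members and lists were chosen with earlier results of these data known. Interval code was tested on simulated data. Alternatives changed the mismatch rule, the sites kept, the read placement, the scaling, the read minimum, the fold and the scale of correlations. Python 3.11.15, numpy 2.4.6, pandas 2.3.3 and scipy 1.17.1 were used.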

Additional observations from a re-analysis of the deposited data

How the results depend on the processing

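No paired analysis was possible because each genotype had 1 library. Of 97 values under alternatives, 70 stayed within the interval or tolerance set for their result (1.5-fold for counts, 0.1 for correlations), 21 moved and 6 crossed 1. The 6 came from scaling to each library's reads on the shared sequence upstream of the region, which removes any difference the region shares with the rest of the shared sequence. The ratios were then 0.711 for intronless over restored introns, 0.647 for prg-1 over intronless, 0.708 for prg-1 over rde-3, 0.417 for locus deleted over present, 0.832 for locus deleted over intronless and 2.00 for locus present over intronless, and rde-3 over intronless moved to 0.913. On unscaled reads rde-3 over intronless was 0.0236 and prg-1 over intronless 3.81; with whole reads inside the region the latter was 5.14. Without the highest site of either library, locus deleted over intronless was 1.61. Without the highest site of each coding region, the downstream over upstream ratio was 0.354 in the intronless library and 0.241 in prg-1, and per cytosine 0.197 in prg-1. Sites with at least 2 reads numbered 6 with restored introns, 4 in rde-3 and 22 with the locus present. Sites past 2-fold numbered 24 in place of 70 for prg-1 over intronless with at least 30 reads, and for locus deleted over intronless 11 in place of 25 with at least 30 reads and 10 at 4-fold. A higher minimum also leaves fewer sites to compare, and the number left at 30 reads is not given here. At 20 reads it was 42 in place of 82 for prg-1 and 26 in place of 47 for locus deleted. The counts at 30 reads therefore do not show a weaker difference. In 50-base windows the Pearson correlation was 0.035 for prg-1 and intronless, 0.67 for rde-3 and intronless, 0.91 for locus deleted and intronless, 0.97 for locus present and intronless and 0.89 between the oma-1::gfp libraries; on the log2 scale of ppm plus 1 the last was 0.58 and prg-1 with rde-3 0.32. The region's level from reads without mismatch was an alternative chosen after seeing the data and stayed within the interval in every library. The 21 and 15 reads with restored introns and in rde-3 limit what can be said of their sites.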
